A study of Mus musculus with 2 samples.

Results

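The cytosolic ribosomal protein genes of the mouse were examined for open chromatin at their promoters in G1E cells. The genes were taken by symbol from the protein-coding genes of the GENCODE M21 annotation: Rpl or Rps followed by a number and at most 1 of the letters a, l or x, together with Rplp0, Rplp1, Rplp2 and Rpsa. This gave 80 genes of 21938, of which 49 encode large-subunit and 31 small-subunit proteins by symbol, and 4 of the 80 (Rpl10l, Rpl39l, Rpl3l and Rps27l) carry the suffix l that marks a paralog. The symbol rule does not reach every subunit gene, so others, such as Rps3a1, Fau and Rack1, were kept in a separate list.

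G1E is a male mouse cell line, given as C57BL/6J and described in the labels as an erythroid progenitor that lacks Gata1, the gene of the transcription factor that drives red cell maturation. ATAC-seq, in which a transposase cuts DNA where chromatin is accessible, was done on 50000 cells in each of 2 biological replicates. Both replicates form 1 group, so there is no second condition to compare with, and nothing in the labels says whether they came from separate cultures. Because all cells lack Gata1, the values describe that state of 1 cell line alone. Promoters of all 10 genes of a list of erythroid and progenitor genes (Klf1, Tal1, Lmo2, Gfi1b, Epor, Nfe2, Zfpm1, Slc4a1, Tfrc and Kit) had a region in both replicates. Over all protein-coding genes the share was 39.1%, and the list was chosen with earlier results of these data known.

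Each ribosome holds 1 copy of nearly every one of these proteins, so cells make them in matched amounts, and rapidly growing cells spend much of their transcription on them. Their mRNAs typically begin with a C followed by a run of pyrimidines, the 5′ terminal oligopyrimidine (TOP) motif, through which mTOR signalling controls their translation. Loss of 1 copy of several of the genes causes Diamond-Blackfan anaemia, in which erythroid progenitors fail while other blood lineages are largely spared, and reduced translation of GATA1 mRNA has been described in that disease. The promoters are CpG-rich and mostly without a TATA box.

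The sequences around the start sites show where such pyrimidine runs lie. Each sequence below holds 40 bases before and 20 bases from the RefSeq start site (build GRCm38.p6, the assembly behind mm10), 5′ to 3′ on the gene's own strand, with a pyrimidine run of at least 8 bases that lies near the start in capitals. The first 3 are the genes with the strongest promoter regions, and all 3 carry such a run:
Rpl15 (chr14:18270967-18271026, minus strand): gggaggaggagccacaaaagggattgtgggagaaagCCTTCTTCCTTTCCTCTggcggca
Rpl31 (chr1:39367811-39367870, plus strand): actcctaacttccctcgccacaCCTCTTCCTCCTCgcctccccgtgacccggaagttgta
Rps27l (chr9:66946046-66946105, plus strand): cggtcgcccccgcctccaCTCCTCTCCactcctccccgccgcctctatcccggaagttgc
The run of Rpl15 was 17 bases long and spanned the start site, that of Rpl31 was 13 bases long and that of Rps27l 9 bases, both ending before the start.

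The next 3 had no promoter region in either replicate, and were picked among the 6 such genes after their values were seen, to set a core subunit gene with a pyrimidine run beside a core gene and a muscle paralog without one:
Rpl4 (chr9:64173347-64173406, plus strand): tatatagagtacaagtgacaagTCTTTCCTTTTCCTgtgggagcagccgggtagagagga
Rpl10a (chr17:28328431-28328490, plus strand): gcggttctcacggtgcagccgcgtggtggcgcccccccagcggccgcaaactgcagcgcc
Rpl3l (chr17:24727786-24727845, plus strand): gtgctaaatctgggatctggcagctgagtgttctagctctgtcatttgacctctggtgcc
A long run was thus printed at a promoter without a region, Rpl4 (14 bases), as well as at the strongest ones.

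Another 3 genes stand for Diamond-Blackfan anaemia. Rps19 is the gene most often mutated in it, and the proteins of Rpl5 and Rpl11 travel with 5S rRNA and can bind the p53 regulator Mdm2:
Rps19 (chr7:24884552-24884611, plus strand): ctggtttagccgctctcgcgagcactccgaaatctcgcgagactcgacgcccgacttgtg
Rpl5 (chr5:107900488-107900547, plus strand): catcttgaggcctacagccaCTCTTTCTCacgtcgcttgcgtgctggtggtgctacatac
Rpl11 (chr4:136053374-136053433, minus strand): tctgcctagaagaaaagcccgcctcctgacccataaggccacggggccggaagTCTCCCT
The run of Rpl5 (9 bases) ended 12 bases before the RefSeq start, and that of Rpl11 (17 bases) began 13 bases after it and runs past the printed window.

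RefSeq promoter entries were at hand for 60 of the 80 genes. A pyrimidine run of at least 8 bases, reaching into the 15 bases on either side of the start, was found at 31 of the 72 entries of these genes (43.1%), against 17.4% of 20150 entries of all protein-coding genes. The longest, 21 bases, belonged to Rpl7a, which encodes a large-subunit protein. Rpl27a followed with 20 bases and Rpl35 with 18. An annotated start that is off by a few bases can move this count.

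A promoter region here is an interval of merged peaks that comes within 1000 bp of any annotated start site of a gene, taken from each replicate's list of peaks thresholded by the irreproducible discovery rate (IDR), a measure of how alike peaks rank in repeated samples. Such a region was listed for 71 of the 80 ribosomal protein genes in replicate 1 and 73 in replicate 2, a mean of 90% ± 1.77 (SD, n = 2), and 70 genes (87.5%) had one in both. Over all 21938 protein-coding genes the shares were 40.5% in replicate 1 and 42.1% in replicate 2, and 39.1% had a region in both. In all 70 genes the strongest regions of the replicates overlapped each other. With the authors' more lenient lists the count was 73 of 80, beside 43.3% of all genes. Peak lists hold no totals of reads and leave the depth unknown, so a gene without a region cannot be called closed.

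The small subunit was covered almost completely. Among the genes without the suffix l, 29 of 30 small-subunit genes and 40 of 46 large-subunit genes had a region in both replicates, and the difference between the subunits was not tested. Rps16 was the small-subunit gene outside that count. All 20 genes of a list mutated in Diamond-Blackfan anaemia, Rps19, Rps24, Rps26, Rpl5, Rpl11 and Rpl35a among them, had a region in both, beside 49 of the other 56 genes without the suffix l. Of the 4 paralogs with the suffix l, Rps27l alone had one.

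**Figure D1:**
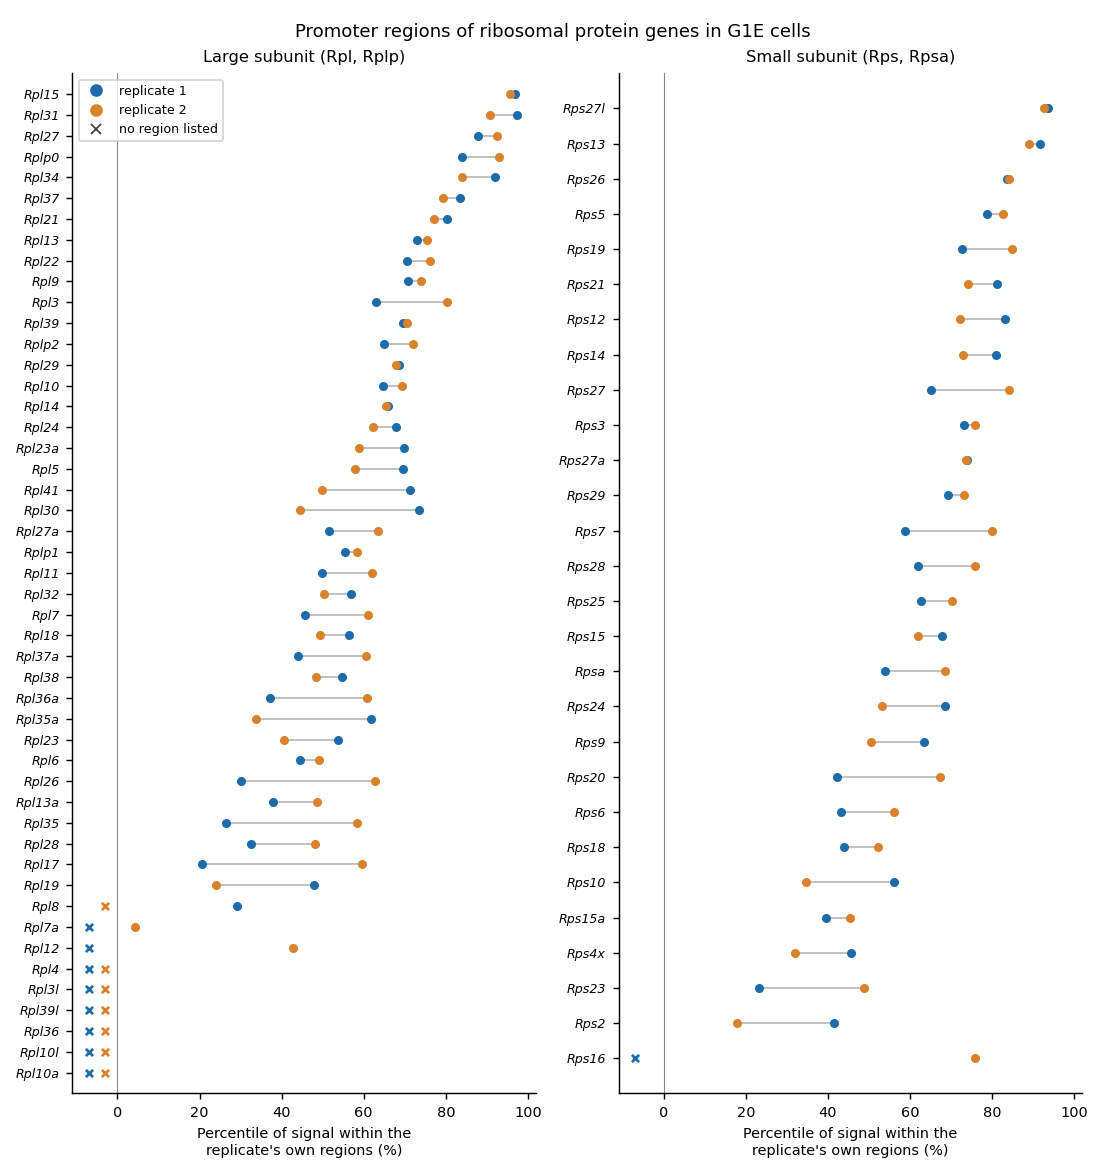
Percentile of signal of the strongest promoter region of each ribosomal protein gene (x axis, in %, rank among the regions of the same replicate), with replicate 1 in blue, replicate 2 in orange and crosses where no region was listed. Genes are ordered by their mean, and 76 of the 80 are drawn; Rpl15 leads the large subunit with percentiles of 97.0 and 95.6, and Rps2 lies low in the small subunit, at 41.4 and 17.8.

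Strength is given as the authors' signal value of each peak, an enrichment that is not scaled between libraries, and as the percentile of that value among all regions of the same replicate. The ribosomal protein promoters were open in nearly every case but mostly of middling strength. Over the 70 genes the median of the mean percentile was 64.0 (quartiles 49.1 and 74.4), beside 72.5 (52.1 and 87.2) over the 8571 protein-coding genes with a region in both. Mean percentiles of 90 or more were found for 6 of the 70 (8.57%) and for 20.1% of the 8571. At the other end, 1 of the 70 (1.43%) lay under the 25th percentile, beside 5.90% of the 8571, so the genes were gathered towards the middle of the range.

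**Figure D2:**
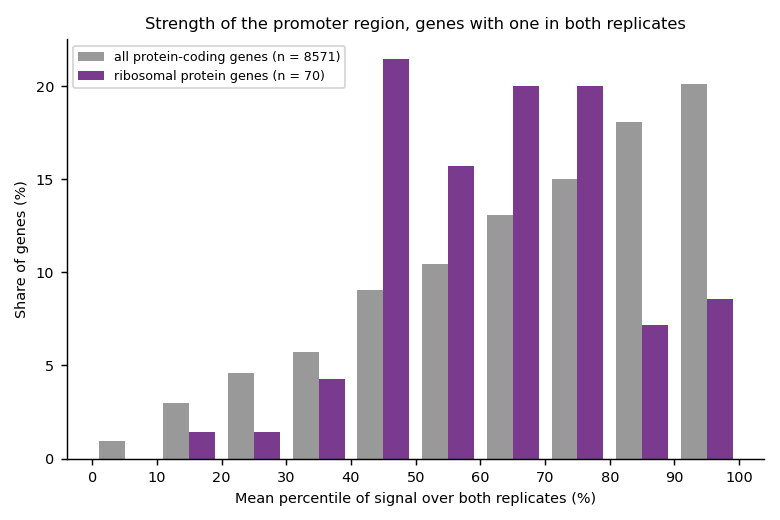
Share of genes (y axis, %) by mean percentile of signal over both replicates (x axis, bins of 10), for the 70 ribosomal protein genes and the 8571 protein-coding genes with a promoter region in both replicates, the former included in the latter. The bin from 90 to 100 held 8.57% of the ribosomal protein genes and 20.1% of all genes.

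Rpl15 had the strongest promoter region of the set. Its signal values were 16.7 and 17.4 in replicates 1 and 2, and its percentiles 97.0 and 95.6 (mean 96.3 ± 0.943, SD, n = 2). Rpl31 had signal values of 16.99 and 15.6 and percentiles of 97.3 and 90.7. Both replicates placed these 2 large-subunit genes above the 90th percentile, and both genes are on the Diamond-Blackfan list. Rps27l, a paralog of Rps27 known as a p53 target, followed at 15.1 and 16.2, with percentiles of 93.6 and 92.6. Rps13, a small-subunit protein that binds early in assembly, had 14.5 and 15.1 (percentiles 91.7 and 89.0). Rpl27, a large-subunit gene on the Diamond-Blackfan list, had 13.5 and 16.1 (percentiles 87.8 and 92.4). The SD between replicates was under 4 percentile points for Rpl15, Rps27l, Rps13 and Rpl27, and 4.68 for Rpl31.

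The weakest promoters with a region in both replicates were spread over both subunits. Among them was Rps2, which lines the mRNA entry channel, with signal values of 7.38 and 6.07 (percentiles 41.4 and 17.8). Rpl19, of the large subunit, had 7.96 and 6.55 (percentiles 47.9 and 24.1). Both genes lay under the 25th percentile in replicate 2 and above it in replicate 1. Rps23, which sits at the decoding centre, had 5.98 and 8.75 (percentiles 23.2 and 48.8) and the X-linked Rps4x had 7.75 and 7.21 (percentiles 45.7 and 32.0). Rpl17 had 5.74 and 9.96, with percentiles of 20.7 and 59.5, a mean of 40.1 ± 27.5 (SD, n = 2). Its replicates were farther apart than those of any other gene of the set, and its place among the weakest rests on replicate 1.

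Spearman's rho between replicate percentiles was 0.736 over the 70 genes and 0.855 over the 8571, as a description across genes, which are not replicates, and the 70 genes span a narrower range of percentiles. The median gap between replicates was 8.20 percentile points for the 70 and 7.22 for the 8571. The largest ratios of replicate 2 to replicate 1 belonged to Rpl17 and Rpl35 (percentiles 26.5 and 58.3), and the smallest to Rps2 and Rpl19. An order among neighbours in the middle of the plot of percentiles is therefore not resolved by 2 replicates.

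In the stalk, which recruits elongation factors, the base protein Rplp0 had signal values of 12.6 and 16.3 (percentiles 83.9 and 93.0). Its partners were lower in both replicates, with 8.64 and 9.81 for Rplp1 (percentiles 55.4 and 58.3) and 9.75 and 11.7 for Rplp2 (percentiles 64.9 and 72.0). Rpl3, near the peptidyl transferase centre, had 9.55 and 13.1 (percentiles 63.1 and 80.2). Rpl10, which joins the large subunit late, had 9.72 and 11.3 (percentiles 64.6 and 69.4). These 2 genes overlapped in replicate spread, as percentiles of Rpl3 lay on either side of those of Rpl10.

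Of the partners of 5S rRNA, Rpl5 had signal values of 10.3 and 9.79 (percentiles 69.5 and 57.8), and Rpl11 had 8.10 and 10.3 (percentiles 49.7 and 62.0). Their order changed between replicates. Rpl22, which has a known role in lymphocyte development, had 10.5 and 12.3 (percentiles 70.6 and 76.0), and Rpl38, tied to translation of Hox mRNAs, had 8.56 and 8.71 (percentiles 54.6 and 48.5). Rpl41, which encodes the smallest of the proteins, had 10.6 and 8.85 (percentiles 71.3 and 49.7).

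Among small-subunit genes, Rps19 had signal values of 10.8 and 14.04 (percentiles 72.7 and 84.8). Rps26, at the mRNA exit channel, had 12.6 and 13.9 (percentiles 83.6 and 84.2), and its replicates nearly coincided. Rps14, the gene linked to the anaemia of human 5q deletion, had 12.1 and 11.8 (percentiles 81.0 and 72.9). Each of these 3 lay above the median of the set in both replicates. Rps24 had 10.2 and 9.22 (percentiles 68.6 and 53.2), and Rps3, at the mRNA entry channel, had 10.8 and 12.3 (percentiles 73.1 and 75.8). Rps6, the substrate of S6 kinase, had 7.50 and 9.58 (percentiles 43.2 and 56.1), below the median of the set in both. Rps27a, made as a fusion with ubiquitin, had 10.95 and 11.9 (percentiles 74.0 and 73.6), and Rpsa, also known as the laminin receptor precursor, had 8.51 and 11.2 (percentiles 53.8 and 68.6).

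The 10 genes without a region in both replicates fell into different kinds. Rpl10l and Rpl39l, paralogs known from testis, and Rpl3l, known from muscle, had no promoter region in either replicate or in the lenient lists. The nearest region of the main list lay 775 kb from a start of Rpl10l in both replicates and 214 kb from Rpl39l. Rpl3l lies 9704 bp from Rps2, and its nearest regions were 3.28 kb away in replicate 1 and 3.60 kb away in replicate 2.

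Rpl10a, Rpl36 and Rpl4 are core large-subunit genes that were also missing from both main lists. For Rpl10a, which sits at the L1 stalk, the nearest region was 10.3 kb away in replicate 1 and 14.9 kb away in replicate 2, and the lenient lists held none within the window either. Rpl36 had a lenient region in replicate 2 alone, with a signal value of 5.43 and its summit 42 bp upstream of the start. Rpl4 had a lenient region with its summit within 5 bp of a start site in both replicates, with signal values of 4.39 and 6.17. In replicate 2 another lenient region, with its summit at −488 bp, had 6.22. The best −log10 IDR within 1000 bp of a start of Rpl4 was 1.53 in the authors' between-replicate list, past the threshold of 0.05. Their conservative list held a region in that window too, although neither main list did. Zwilch starts 271 bp away on the other strand, so these values cannot be assigned to 1 gene. In the between-replicate list Rpl10a had a −log10 IDR of 0.749 and Rpl36 one of 0.638, so neither passed. Of these 3 genes, Rpl4 was therefore the one that a between-replicate list kept.

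Rpl12, Rpl7a and Rps16 were listed in replicate 2 alone and Rpl8 in replicate 1 alone. Rps16 had a signal value of 12.3 in replicate 2 (percentile 75.8), and 7.89 in the lenient list of replicate 1. Rpl12 had 8.13 in replicate 2 (percentile 42.7) and 3.96 in the lenient list of replicate 1. Both therefore had a weaker interval at the same promoter in the other replicate. Rpl7a had 4.62 in replicate 2 (percentile 4.36), with no lenient region in replicate 1, and Rpl8 had 6.38 in replicate 1 (percentile 29.1), with none in replicate 2. On the other strand, Lrsam1 starts 55 bp from a start of Rpl12 and Med22 87 bp from a start of Rpl7a. The values of Rpl12 and Rpl7a therefore cannot be assigned to 1 gene. In the between-replicate list, 72 of the 80 genes passed an IDR of 0.05, the 70 with Rps16 and Rpl4 added. The share passing it is not given here for all protein-coding genes. The conservative list also held a region for 72 of the 80 (90%), beside 39.8% of all protein-coding genes.

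Ribosomal protein genes have many processed pseudogenes, copies of their mRNAs, and how reads that align in several places were handled is not given in the sources used here. Within 250 bp of the start, a median of 2.02% of 31-base words of the 80 genes occurred elsewhere in the genome, with a range of 0 to 40.8%. The highest share belonged to Rps29, which had signal values of 10.3 and 11.9. Among the 10 genes without a region in both, the median was 3.82% and the range 0 to 20.4%. Rpl4, Rpl8, Rpl39l and Rpl3l were at 0 and Rpl10a at 0.637%, while Rpl12 was at 20.4%, Rpl36 at 15.5% and Rps16 at 12.1%. The part of such repeats in the missing regions was not tested.

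The regions sat tightly on the start sites. The median summit lay 35 bp upstream of the nearest annotated start in both replicates, beside 53 and 52 bp for the 8571 genes. Summits fell within 100 bp of a start for 57 of 70 genes in replicate 1 (81.4%) and 51 in replicate 2 (72.9%), beside 61.7% and 63.1% of the 8571. The region covered a start site in 68 of 70 (97.1%) in each replicate, beside 86.0% and 87.7%. A gene with more annotated starts has more chances to lie near one: the median number was 6 for the set and 5 for the 8571, and its part in these shares was not tested. Median widths were 455 and 441.5 bp, against 495 and 519 bp. Summits of the replicates lay within 50 bp of each other for 63 of the 70 (90%), beside 83.4% of the 8571.

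**Figure D3:**
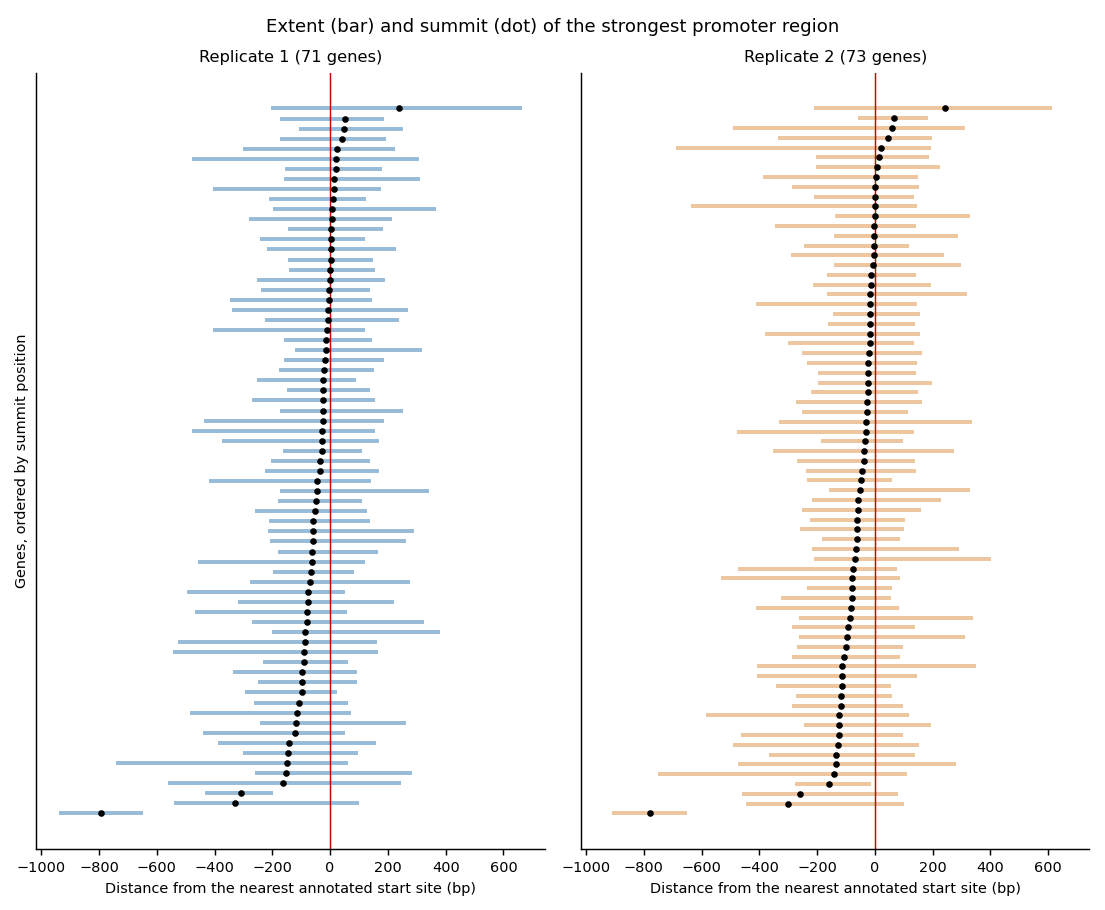
Extent (bar) and summit (black dot) of the strongest promoter region of each ribosomal protein gene, as distance from the nearest annotated start site (x axis, bp, negative is upstream; red line at the start), for 71 genes in replicate 1 and 73 in replicate 2. Most bars cross the start; the lowest bar in each panel is Rps15a, with summits at −794 and −780 bp.

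Rps15a stood apart. Its strongest region had summits at −794 and −780 bp and did not reach a start in either replicate, with signal values of 7.22 and 8.42. A second, weaker region covered the start, with 3.82 and 5.36. In Rpl32 the summits lay at −308 and −301 bp, and in replicate 1 a second region with a signal value of 7.90 covered the start. Rpl13a had summits at −329 and −258 bp inside a region of 643 and 542 bp that covered the start (signal values 7.07 and 8.71). On the other side of the nearest GENCODE start, Rps25 had summits at 238 and 242 bp (signal values 9.49 and 11.4), in a region of 870 and 828 bp that also covers the start of Trappc4, a gene 60 bp away on the other strand. Rps19 had summits at 21 and 58 bp. Measured from the RefSeq start, the same summits lay upstream, at −337 and −333 bp for Rps25 and at −200 and −163 bp for Rps19, so their side turns with the start used. In all, 14 of the 70 genes had more than 1 promoter region in a replicate. The same share is not given here for all protein-coding genes, and a gene with more annotated starts has more windows. Whether the count is particular to the set was not tested.

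Some promoters are shared with a neighbour. A protein-coding gene on the opposite strand started head to head within 1 kb of 17 of the 80 genes (21.3%), beside 11.7% of all protein-coding genes. For 12 of the 70 genes, the same 12 in both replicates, the strongest region also came within 1 kb of a start of another protein-coding gene, so its signal cannot be assigned to 1 gene. Rpl15, the strongest of the set, is among them, with Nkiras1 starting 69 bp away. The share of genes with such a shared region is not given here for all protein-coding genes. Whether 12 of 70 is particular to the set was therefore not tested. With an opposite-strand partner, 14 of 17 genes (82.4%) had a region in both, near the 81.1% of all protein-coding genes with such a partner. Without one, 56 of 63 (88.9%) did, beside 33.5% of all such genes. The median mean percentiles were 67.7 with a partner and 62.5 without, and 75.4 and 71.1 over all genes. The genes with a partner include Rpl3, Rps2, Rps14 and Rps24, whose strongest regions were not among the 12 shared ones.

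The spans of 29 of the 80 genes (36.3%) held 56 annotated small nucleolar RNAs on the same strand. Of all protein-coding genes, 1.27% hosted any. Many small nucleolar RNAs guide the chemical modification of rRNA. Small Cajal body RNAs were counted with them, and whether each RNA lies in an intron was not checked. A region in both replicates was found for 25 of 29 hosts (86.2%) and 45 of 51 other members (88.2%), beside 66.7% of all hosts and 38.7% of all other genes. The hosts and other members of the set had median mean percentiles of 63.7 and 64.9. Rpl4, without a region in the main lists, hosts 5 of these RNAs, and Rpl13a hosts 4.

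Short motifs were counted within 250 bp of the replicate 1 summit in the 70 genes and in the 8571, on both strands unless stated. No word contains another, though adjoining matches may overlap. The ETS core CCGGAAG, bound by factors such as GABPA, was found in 32 of 70 (45.7%) and in 28.6% of the 8571. The YY1 word AAGATGG was in 14 (20%) beside 12.7%, and the pyrimidine hexamer CTTTCC, on the gene's strand alone, in 29 (41.4%) beside 23.1%. These 3 kinds were thus found in a larger share of ribosomal protein promoters. The SP1 word GGGCGG was in 47 (67.1%) beside 75.8%, and the NFY box CCAAT in 28 (40%) beside 54.6%. The E-box CACGTG was also in a larger share, 20% beside 14.5%, as was the TATA box word TATAAA, 12.9% beside 8.62%. The NRF1 word GCGCANGCG was in 14.3% beside 17.9%. A match is a description of letters and not evidence of a bound factor.

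The word AGATAA, the form preferred by GATA factors, was in 1 of the 70 (1.43%), Rpl36a, and in 11.98% of the 8571. Counted around the outermost start sites in place of the summits, it was in 7 of the 70 (10%) and in 9.28% of the 8571, so the lower share did not hold with that window.

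**Figure D4:**
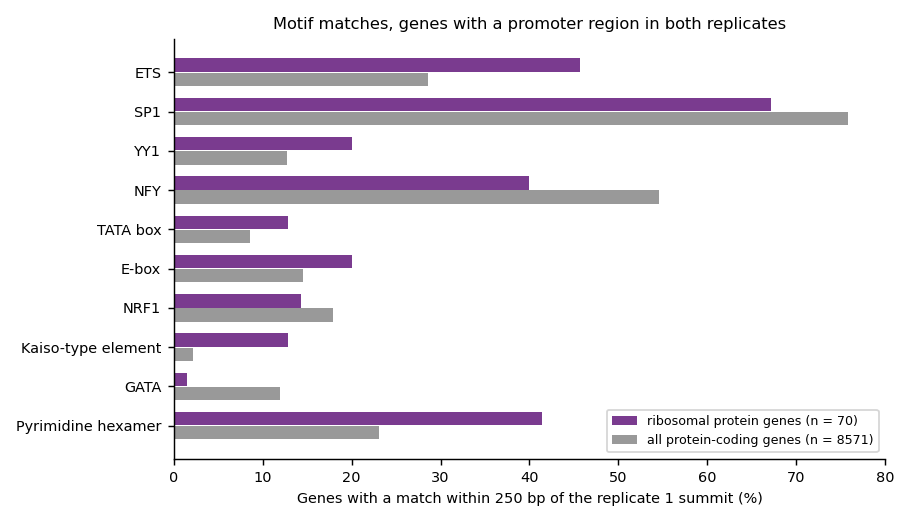
Share of genes (x axis, %) with at least 1 match to each of 10 words within 250 bp of the replicate 1 summit, for the 70 ribosomal protein genes and the 8571 protein-coding genes with a promoter region in both replicates. The Kaiso-type element was found in 12.9% and 2.12%, the ETS word in 45.7% and 28.6%, and the GATA word in 1.43% and 11.98%, a gap that did not hold around the outermost starts.

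The widest excess in proportion was at the element CTCGCGAGA, which has been linked to the factor Kaiso (Zbtb33) and to active CpG island promoters. It was found near the summit of 9 of the 70 genes (12.9%) and of 2.12% of the 8571, Rpl17, Rpl26, Rpl27a, Rps6, Rps7, Rps19 and Rps28 among the 9. Since the element is nearly its own reverse complement, 1 site can give a match on each strand. In 4 of these genes it lies within the 60 bases around the RefSeq start, printed as before but with the element in capitals, a set chosen after the matches were seen:
Rpl26 (chr11:68901526-68901585, plus strand): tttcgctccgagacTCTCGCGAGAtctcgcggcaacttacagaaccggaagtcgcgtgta
Rpl27a (chr7:109519155-109519214, plus strand): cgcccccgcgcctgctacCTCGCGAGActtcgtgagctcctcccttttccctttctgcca
Rps19 (chr7:24884552-24884611, plus strand): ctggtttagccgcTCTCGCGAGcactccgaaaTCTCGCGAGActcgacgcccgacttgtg
Rps28 (chr17:33824543-33824602, minus strand): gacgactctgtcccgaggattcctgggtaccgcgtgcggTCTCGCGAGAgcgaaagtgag
Rps19 held 2 separate copies in this window, and in Rps28 the element overlapped the start itself. Rps19 had the highest percentiles of the 9 genes, 72.7 and 84.8. Their median mean percentile was 49.7, beside 64.9 for the other 61.

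Base composition placed the set among CpG-rich promoters. The median observed to expected ratio of CpG within 250 bp of the outermost start was 0.853 over the 80 genes, 0.586 over all protein-coding genes and 0.798 over the 8571 with a region in both. A ratio over 0.6 was found for 74 of the 80 (92.5%), beside 49.0% of all protein-coding genes. Among genes with a region in both, it was found for 65 of the 70 (92.9%), beside 79.98% of the 8571. The 7 genes without the suffix l that lacked a region in both were all over 0.6, with ratios from 0.659 to 1.04.

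Distal regions, over 1 kb from the start sites of genes of any kind, were found in both replicates within 50 kb of 37 of the 80 genes (46.3%), beside 32.3% of all protein-coding genes and 47.4% of the 8571 with an open promoter. The count was thus near that of other genes with a promoter region. Rps21 had 5, the most of the set, all upstream and between 5.93 and 41.3 kb from a start, with signal values from 5.07 to 9.17 in replicate 1 and from 5.96 to 9.55 in replicate 2. Rps19, Rps23, Rpl21 and Rpl37 had 4 each. Those of Rps19 were all upstream, from 24.97 to 38.5 kb away. Rps23 had 1 strong one 16.6 kb downstream, within Atg10, with signal values of 15.3 and 17.1. Which gene a distal region serves was not tested.

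The 80 genes lay on 19 chromosomes, most often on chromosome 7, which held 14, and pairs within 50 kb were few. Rpl3l and Rps2 start 9704 bp apart and shared no region. Of 294 processed pseudogenes named for ribosomal protein genes, 3 (1.02%) had a region in both replicates within 1 kb, beside 1.26% of 10236 processed pseudogenes of all kinds, a share near that background. They were Rpl10a-ps2, Rpl21-ps8 and Rpl29-ps2. Rpl29-ps2 lay within 1 kb of a coding gene's start and its region had signal values of 19.4 and 21.1.

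Most other genes of the translation machinery had a promoter region too. Among further subunit genes and paralogs whose symbols fall outside the rule, Rps3a1, Rack1, Rpl36al, Rpl22l1 and Rpl7l1 had a region in both replicates. Fau, which encodes a ribosomal protein fused to a ubiquitin-like protein, had one in replicate 1 alone, with a signal value of 7.29. Of 16 genes of translation factors and other proteins with TOP mRNAs, 15 had a region in both, with a median mean percentile of 71.5. Over all protein-coding genes, 39.1% had a region in both, and the median mean percentile of those was 72.5. Eef2, the elongation factor of translocation, was the exception, with a region in replicate 1 alone (signal value 7.99).

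Of 34 ribosome assembly factors, 32 had one in both (median mean percentile 64.5), Gnl3 and Utp4 being the others. For this list and the next 2, the values over all protein-coding genes are again 39.1% and a median of 72.5. Heatr1, needed for pre-rRNA transcription and processing, had signal values of 18.96 and 19.07, above every ribosomal protein gene in both replicates. All 13 genes of RNA polymerase I and its factors had a region in both, with a median mean percentile of 76.0. The 10 erythroid genes had a median of 45.0, below the 64.0 of the ribosomal protein genes, with Nfe2 at the top (signal values 13.7 and 15.7) and Tal1 at the bottom (4.65 and 5.86). These medians describe lists chosen with earlier results known and were not tested.

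**Figure D5:**
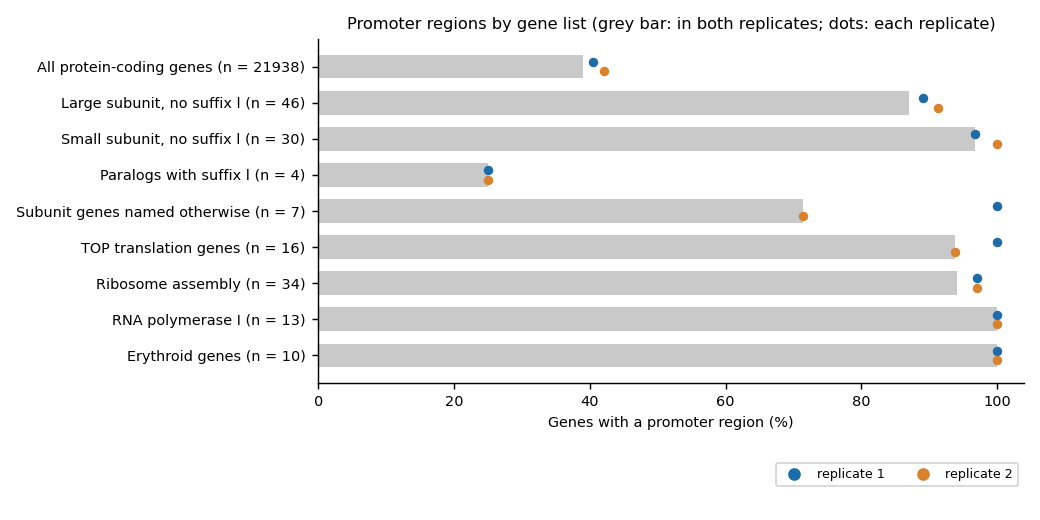
Share of genes (x axis, %) with a promoter region in both replicates (grey bars) and in each replicate (dots), for all protein-coding genes, the ribosomal protein genes by subunit and suffix, and the related lists. All protein-coding genes stand at 39.1% in both replicates, small-subunit genes at 96.7% and large-subunit genes at 87.0%.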

How the data were processed

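ATAC-seq peak lists of 2 replicates of 1 group were used; no reads were. The authors deposited, per the labels, lists on build mm10. Each peak has a signal value, an enrichment deposited as the authors' caller gave it, and a deposited −log10 p value. The between-replicate list has a deposited score, the −log10 of the IDR. The aligner is not given in the sources used here, nor are the caller and its settings. A peak in a list is the authors' own call, so a different threshold would move the counts.

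The thresholded lists held 26083 and 27810 peaks, which were merged where they overlapped or touched into 21194 and 22620 regions, each with the signal and summit of its strongest peak. Percentiles are ranks of signal within a replicate, and offsets run from the nearest start in GENCODE M21. Depth is unknown, so no interval was computed. With 1 group, conditions could not be compared, and comparisons between sets of genes are descriptions that were not tested. Python 3.11.15, numpy 2.4.6 and scipy 1.17.1 were used, and the overlap, offset and motif steps were tested on simulated data.

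The genes and the 6 gene lists were chosen with earlier results of these data known. Genes named with values were those without a region in both replicates, the 6 strongest and 6 weakest, the 3 with the farthest summits on each side, the 2 with the largest and the 2 with the smallest percentile ratio, those with the suffix l, and a list of well-known members. Further genes named beside a count were picked with values in view. Alternatives were other lists, windows, start sites, overlaps, ranks and leaving out a replicate. Lists pooled over replicates, other than the conservative list and the between-replicate list with its IDR scores, were not used. Some genes that this rule names are not reported here, and they remain in every count.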

Additional observations from a re-analysis of the deposited data

How the results depend on the processing

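Of 48 alternative values, 10 moved past a limit of 1.5 times for counts or 1 SD between replicates for medians, and 38 stayed within it. With the stronger 50% of regions alone, genes with a promoter region fell from 71 to 49 in replicate 1 and from 73 to 54 in replicate 2, and those with one in both fell from 70 to 42 of 80 (52.5%), while all protein-coding genes fell to 27.2%. Leaving out a replicate gave 71 to 73. The other alternatives gave 65 (outermost start alone) to 73 (lenient lists). The median percentile of 64.0 became 77.0 with the lenient lists, 69.8 with unmerged peaks and 68.2 with ranks by −log10 p, and 62.8 to 63.5 without a replicate. The median summit offset, −33.5 bp over replicate means, became −37.0 with the lenient lists and −20.75 from the outermost start, and −38.0 to −35.0 without a replicate. Genes with a distal region fell from 37 to 22 at 25 kb, a shorter distance that can only lower the count. Such genes numbered 51 at 100 kb and 49 with the lenient lists. The shares over all protein-coding genes are not given here for these settings. Whether the count stays near that of other genes with a promoter region was therefore not tested there. Apart from the drop at 25 kb, the causes of the shifts were not tested. No paired analysis was possible because both replicates belong to 1 group and no test was made. Unknown depth limits every statement about a missing region.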
